A study of Mus musculus with 272 samples.

Results

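Olfactory receptors form the largest gene family of the mouse, and their promoters were examined in muscle stem cells (MuSCs), a cell type outside the olfactory system. Members were all protein-coding genes of the GENCODE M21 annotation of mm10 whose name starts with *Olfr*, and the promoter of a gene was taken as 3 kb on either side of any of its transcription start sites (TSSs). This gave 1135 genes of 21938 protein-coding genes, or 5.17%, with 2628 distinct TSSs on 18 chromosomes and 9.98 Mb of promoter windows. Of these genes, 41 carry names ending in -ps, the label of pseudogenes, although the annotation lists them as protein-coding, and 69 have no annotated 5′ UTR, so that their annotated start may be the start codon rather than a TSS.

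The study followed Cas9 repair outcomes in MuSCs of Pax7Cas9 mice, in which Pax7Cre, active in MuSCs, switches on a Cas9-EGFP transgene, and 8 of its 272 libraries mapped the chromatin of these cells. MuSCs were dissociated from hindlimb muscle and sorted as GFP+ cells, with 2 replicates each of ATAC-seq, which cuts open DNA, and of ChIP-seq for 3 histone marks: H3K4me3, typical of promoters, H3K27ac, typical of promoters and enhancers in use, and H3K27me3, the repressive mark of Polycomb. All 8 libraries carry the same genotype, their labels give neither age nor a treatment, and the labels do not say whether replicates came from separate mice. The deposited lists held from 6064 to 140716 peaks on the assembled chromosomes without read numbers. Their depth is therefore unknown, and a promoter without a peak is one where none was called. All 13 listed MuSC markers, among them *Pax7*, *Myf5* and *Calcr*, had ATAC-seq and H3K4me3 promoter peaks in both replicates, and 12 had H3K27ac. Over all protein-coding genes the shares were 67.8%, 60.8% and 46.6%. The markers were listed with earlier results of these data known, so their counts are no independent check of the cell type. With 2 libraries a feature and clustered genes, no test was run, and the counts below are descriptions.

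An olfactory receptor is a G protein-coupled receptor that binds odorants on the cilia of olfactory sensory neurons, where it signals through the G protein subunit encoded by *Gnal*, the adenylyl cyclase *Adcy3* and a cyclic nucleotide-gated channel that includes *Cnga2*. The receptor genes lie in large clusters, and each mature neuron expresses a single allele of a single gene while the others are kept silent in heterochromatin, which in that tissue carries methylation of H3K9 and H4K20 rather than H3K27. Choice in the neuron depends on the factors Lhx2, Ebf and Ldb1 bound at distant enhancers, and class I receptors, related to those of fish, sit together on chromosome 7 while class II receptors are spread over many clusters.

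Before the values, the stretches on which they turn are shown from the GRCm38.p6 reference of RefSeq, the same build as mm10, each written 5′ to 3′ on the strand of its gene. They are the promoter of *Olfr224*, from 250 bp before to 30 bp after its outermost TSS, the only *Olfr* promoter with ATAC-seq summits within 250 bp of a TSS in both replicates and no closer TSS of another gene, the central 200 bp of the shared peaks at *Olfr983*, *Olfr984*, *Olfr1331* and *Olfr94*, and 2 of the strongest peaks that were called in replicate 1 alone, at *Olfr60* and *Olfr1442*. Capitals mark letters that match TGANTCA, the core bound by AP-1, or CAGCTG, an E-box core of the kind bound by myogenic bHLH factors, on either strand. Both motifs were chosen after these sequences had been read.
Olfr224, chr11:58570524-58570803, minus strand: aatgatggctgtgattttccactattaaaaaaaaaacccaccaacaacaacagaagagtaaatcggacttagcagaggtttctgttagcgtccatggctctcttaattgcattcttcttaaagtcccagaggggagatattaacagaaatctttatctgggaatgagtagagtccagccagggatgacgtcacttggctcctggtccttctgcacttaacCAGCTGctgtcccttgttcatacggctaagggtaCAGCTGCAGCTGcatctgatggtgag
Olfr983, chr9:40094857-40095056, minus strand: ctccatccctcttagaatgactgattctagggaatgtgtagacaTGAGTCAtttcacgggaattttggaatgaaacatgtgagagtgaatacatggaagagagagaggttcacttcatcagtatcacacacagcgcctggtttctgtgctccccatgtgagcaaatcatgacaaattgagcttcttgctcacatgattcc
Olfr984, chr9:40117080-40117279, minus strand: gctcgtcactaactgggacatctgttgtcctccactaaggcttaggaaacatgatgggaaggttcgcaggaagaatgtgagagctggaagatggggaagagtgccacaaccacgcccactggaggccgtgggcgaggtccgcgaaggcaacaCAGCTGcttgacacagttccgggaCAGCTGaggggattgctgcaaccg
Olfr1331, chr4:118862765-118862964, plus strand: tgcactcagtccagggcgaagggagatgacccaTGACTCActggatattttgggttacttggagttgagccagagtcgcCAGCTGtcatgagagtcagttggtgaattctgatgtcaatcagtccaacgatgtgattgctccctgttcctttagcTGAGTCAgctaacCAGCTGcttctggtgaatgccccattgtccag
Olfr94, chr17:37197192-37197391, minus strand: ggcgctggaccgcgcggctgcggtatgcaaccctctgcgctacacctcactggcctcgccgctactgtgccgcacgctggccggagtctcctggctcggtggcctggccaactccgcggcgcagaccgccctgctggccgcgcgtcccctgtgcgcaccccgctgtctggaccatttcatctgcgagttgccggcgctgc
Olfr60, chr7:140361982-140362149, minus strand: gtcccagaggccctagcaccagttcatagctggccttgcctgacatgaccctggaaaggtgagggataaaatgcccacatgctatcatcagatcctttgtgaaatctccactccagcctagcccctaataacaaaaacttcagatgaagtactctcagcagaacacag
Olfr1442, chr19:12668803-12668952, plus strand: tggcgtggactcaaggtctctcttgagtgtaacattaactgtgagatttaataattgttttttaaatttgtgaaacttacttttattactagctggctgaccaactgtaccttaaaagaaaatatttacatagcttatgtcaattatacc
The first 5 were open in both replicates, and 3 of them held an E-box core. Neither of the last 2, seen in replicate 1 alone, held a match to either motif. As the motifs were chosen from these stretches, this difference is no support. In 300 bp around their summits, 15 of the 101 *Olfr* peaks of replicate 1 alone held CAGCTG and 12 held TGANTCA. The printed part of *Olfr94* lies wholly in its coding exon and has a GC content of 72% with 24 CpGs, against 43.5% and 2 CpGs in the stretch from *Olfr983*.

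Most *Olfr* promoters held no peak of any kind. No peak of the 8 lists touched the promoters of 1022 of the 1135 *Olfr* genes, or 90%, against 4655 of the 20803 other protein-coding genes, or 22.4%. *Olfr* genes therefore made up 18% of all 5677 protein-coding genes without any promoter peak. A further 92 *Olfr* genes owed their only peak to ATAC-seq replicate 1, and 9 had a peak of any histone mark in any list. *Olfr16*, which encodes the receptor MOR23 known from the migration and adhesion of muscle cells and is named here for that reason, was among the genes without a peak in any list.

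**Figure D1:**
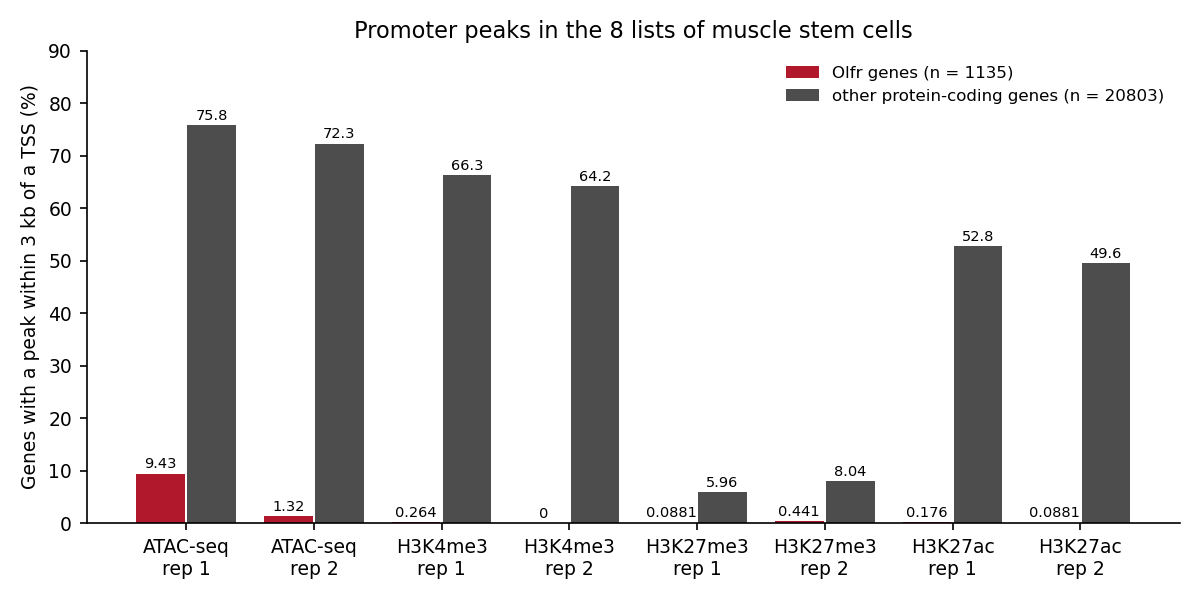
Percent of genes with a peak within 3 kb of a TSS in each of the 8 lists (x axis), for 1135 Olfr genes (red) and 20803 other protein-coding genes (grey). Olfr genes reach 9.43% in ATAC-seq replicate 1 and stay at or under 1.32% in the other 7 lists, where the other genes lie between 5.96% and 72.3%.

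H3K4me3, which marks most promoters in use, was not called at an *Olfr* promoter in both replicates. Replicate 1 had H3K4me3 at 3 *Olfr* genes and replicate 2 at 0, and 0 *Olfr* genes had it in both, whereas of all protein-coding genes 62.9%, 60.9% and 60.8% did so. The 3 genes, named here after their values were seen, were *Olfr94* with a fold enrichment of 3.95, *Olfr986* with 3.41 and *Olfr984* with 3.05. These folds lay far below the median of 19.4 for H3K4me3 peaks of replicate 1 at other protein-coding promoters. None of the 3 peaks overlapped a peak of replicate 2, while 88.3% of the H3K4me3 peaks at other promoters did.

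H3K27ac was called at *Olfr56* alone in both replicates. There were 2 *Olfr* genes with an H3K27ac promoter peak in replicate 1, 1 in replicate 2 and 1 in both, against 50.1%, 47% and 46.6% of all protein-coding genes. *Olfr56* (ENSMUSG00000040328.15, chr11:48978889-49135387, plus strand) has a long gene model that spans *Ifi47*, an interferon-induced GTPase gene. Its strongest H3K27ac peaks had folds of 4.60 and 4.05 in replicates 1 and 2, with summits 465 and 384 bp from the nearest TSS of *Ifi47* and 747 and 828 bp from that of *Olfr56*. Every peak of any list in the *Olfr56* window lay nearer to a TSS of *Ifi47* or of the processed pseudogene *Gm12188*, so that the mark cannot be assigned to the receptor gene. The other gene, *Olfr984*, had an H3K27ac fold of 3.83 in replicate 1 only.

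H3K27me3, the mark by which Polycomb silences many developmental genes, was likewise not called at these promoters in both replicates. Replicate 1 had H3K27me3 at 1 *Olfr* gene, replicate 2 at 5, and both at 0, against 5.66%, 7.64% and 4.81% of all protein-coding genes. The single gene of replicate 1 was *Olfr1450*, and those of replicate 2 were *Olfr38*, *Olfr94*, *Olfr211*, *Olfr283* and *Olfr1279*, all named after their values were seen. Their folds ranged from 3.08 to 3.42, and their −log10 q from 0.451 to 1.05. All 6 peaks thus had a q above 0.05, as did 47.3% and 38.5% of all H3K27me3 peaks in replicates 1 and 2.

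The lack of H3K27me3 was also seen beside other promoters without active marks. Of the protein-coding genes outside the family, 7379 had neither H3K4me3 nor H3K27ac in both replicates, and 209 of these, or 2.83%, had H3K27me3 in both. The corresponding number was 0 of 1134 *Olfr* genes. ATAC-seq peaks in both replicates were present at 1623 of the 7379 genes, or 22%, and at 13 of the 1134 *Olfr* genes, or 1.15%.

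*Olfr* promoters differed from others in base composition, measured in the 300 bp from 250 bp before the outermost TSS of each gene. The median GC content was 37.7% for *Olfr* genes and 55.7% for other protein-coding genes, and the median number of CpGs was 1 and 12. No CpG at all was found in 401 *Olfr* promoters, or 35.3%, against 3.59% of the others, and a ratio of observed to expected CpGs above 0.6 was found in 0 *Olfr* promoters and in 46.7% of the others. Other genes without H3K4me3 in both replicates had a median of 3 CpGs. The part of base composition in the lack of marks was not tested.

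Copies within the family can be alike, and the share of 100-base stretches that occur once in the genome was measured in each window. The median share was 99.2% for *Olfr* windows and 100% for those of other genes. Under 90% unique were 97 *Olfr* genes, or 8.55%, and 9.05% of the others, and under 50% unique were 4 *Olfr* genes, or 0.352%, and 4.42% of the others. The median was 99.2% for the *Olfr* genes without an ATAC-seq peak and 96.3% for the 14 with one in both replicates, of which 3 (21.4%) were under 90%. The part of sequence uniqueness in the calls was not tested.

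Counted per Mb of sequence, peaks were sparser at *Olfr* promoters than both at other promoters and in the DNA outside the promoters of any gene. In replicate 2 of ATAC-seq there were 1.90 peaks per Mb of *Olfr* promoter, 141 at other protein-coding promoters and 23.5 outside promoters. In replicate 1 the same densities were 11.8, 187 and 37.6. H3K27ac gave 0.301 and 0.100 peaks per Mb at *Olfr* promoters, against 3.98 and 2.34 outside promoters. *Olfr* promoters thus lay below DNA outside promoters in all 8 lists, by between 3.18-fold in ATAC-seq replicate 1 and 23.3-fold in H3K27ac replicate 2, leaving aside H3K4me3 replicate 2 with 0 peaks. The ratio for H3K27ac replicate 2 rests on 1 peak, that beside *Ifi47* described above.

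**Figure D2:**
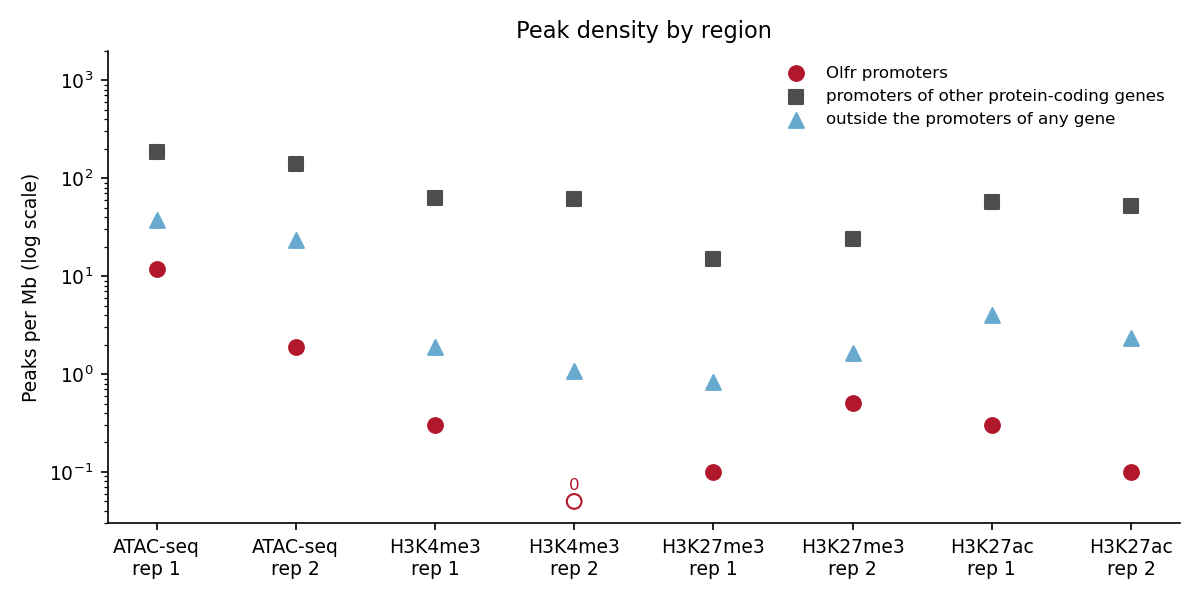
Peaks per Mb (log scale) in each of the 8 lists (x axis) for Olfr promoters (red circles), promoters of other protein-coding genes (grey squares) and DNA outside the promoters of any gene (blue triangles). The open circle stands for 0 peaks in H3K4me3 replicate 2, and the red circles are the lowest of the 3 symbols in every list.

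The distance to the nearest peak gave the same picture on a larger scale. From an *Olfr* TSS the median distance was 287 and 317 kb to H3K4me3 in replicates 1 and 2, and 311 and 360 kb to H3K27ac, whereas for other protein-coding genes the medians were 0 kb for H3K4me3 and 0.204 and 3.66 kb for H3K27ac. For H3K27me3 the medians were 889 and 738 kb for *Olfr* genes and 361 and 228 kb for the others. ATAC-seq differed between its replicates, with a median of 33.9 kb in replicate 1 and 261 kb in replicate 2.

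ATAC-seq was the feature called most often at *Olfr* promoters, with more genes in replicate 1 than in replicate 2. Replicate 1 had peaks at 107 *Olfr* genes, or 9.43%, replicate 2 at 15, or 1.32%, and both at 14, or 1.23%, against 72.4%, 68.6% and 67.8% of all protein-coding genes. Replicate 1 had 118 peaks in the *Olfr* windows, of which 17 (14.4%) overlapped a peak of replicate 2, and replicate 2 had 19, of which 15 (78.9%) overlapped one of replicate 1. At the promoters of other protein-coding genes these shares were 77% and 88.9%.

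The 101 peaks of replicate 1 alone were narrow, with a median width of 98 bp, and many were high. Their median fold was 8.85, close to the 9.19 of the 17 shared peaks, and 42 had a fold of at least 10. The highest fold, 85.1, was that of the printed 168 bp stretch 377 bp upstream of *Olfr60*, followed by 75 at *Olfr887* and 69.0 at *Olfr329-ps*, while at *Olfr1442* it was 57.9. These genes were named after their values were seen. No peak of replicate 2 overlapped any of them, and the 4 *Olfr* peaks of replicate 2 alone reached a fold of 4.01 at most.

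Such high peaks of replicate 1 alone were also present elsewhere in the genome. Peaks of replicate 1 alone with a fold of at least 10 had a density of 4.21 per Mb at *Olfr* promoters, 4.32 per Mb at other protein-coding promoters and 3.56 per Mb outside promoters. In replicate 2 there were 0 such peaks in any of these regions. Shared peaks, by contrast, had densities in replicate 1 of 1.70 per Mb at *Olfr* promoters, 144 per Mb at other promoters and 21 per Mb outside promoters. Peaks of replicate 1 alone at any fold had densities of 10.1, 43 and 16.6 per Mb in the same regions. The origin of the peaks of replicate 1 alone was not tested.

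**Figure D3:**
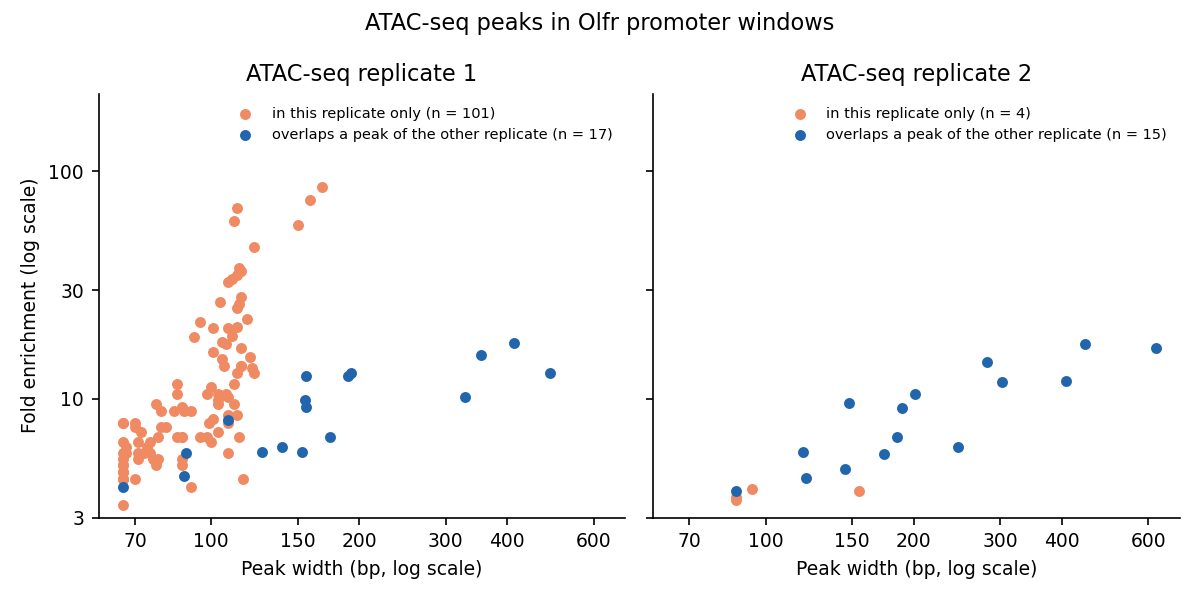
Fold enrichment against peak width (both on log scales) for the ATAC-seq peaks in Olfr promoter windows, in replicate 1 (left, 118 peaks) and replicate 2 (right, 19 peaks). Blue points overlap a peak of the other replicate and widen as they rise, whereas the orange points of replicate 1 alone rise to a fold of 85.1 at a median width of 98 bp.

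At the 14 *Olfr* genes with an ATAC-seq peak in both replicates, the folds of the strongest peak were mostly alike between replicates. *Olfr984* (ENSMUSG00000045812.5, chr9:40096515-40114206) had folds of 17.7 and 16.8 in replicates 1 and 2, and its neighbour *Olfr983* (ENSMUSG00000044205.7, chr9:40086908-40093595) had 15.7 and 17.4. Both peaks lie between genes, with summits 2868 and 2945 bp upstream of *Olfr984* and 1326 and 1391 bp upstream of *Olfr983*. *Olfr149*, in the same cluster of 95 *Olfr* genes on chromosome 9, had 12.6 and 14.5 in the non-coding part of an exon. By the lower of the 2 folds, the 3 highest genes of the family therefore came from a single cluster. In replicate 1, however, *Olfr543*, *Olfr94* and *Olfr1373*, on other chromosomes, were above *Olfr149*. *Olfr543*, at 18.9, had the highest fold of the 14 genes in that replicate.

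*Olfr94* (ENSMUSG00000043827.9, chr17:37196425-37200994) had folds of 13 and 11.9 over its coding exon, and had H3K4me3 in replicate 1 and H3K27me3 in replicate 2 over the same exon. It shared with *Olfr984* the largest number of features with a peak in any list, 3 of 4. The nearest gene outside the family, *Ubd*, had its TSS 3433 and 3513 bp from the ATAC-seq summits. *Olfr224* (ENSMUSG00000059279.11, chr11:58565856-58570553) had folds of 12.6 and 10.5, with summits 9 and 5 bp from its TSS, and the peaks of both replicates covered 114 of the 280 printed bases. It had no peak of any histone mark. *Olfr1331* (ENSMUSG00000073769.4, chr4:118864649-118871707) had 10.2 and 11.9, with summits 1857 and 1842 bp upstream of its TSS.

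By the lower of the 2 folds, the next genes were *Olfr15* (8.11 and 9.56, over its coding exon), *Olfr1373* (12.9 and 6.78, in an intron of *Gm26551*), *Olfr90* (6.81 and 6.14, between genes) and *Olfr56* (5.87 and 9.12, beside *Ifi47* as above). The remaining 4 genes, *Olfr543*, *Olfr156*, *Olfr1382* and *Olfr750*, had a lower fold of between 3.95 and 5.70. Replicates were farthest apart at *Olfr543*, with 18.9 and 5.70, where the strongest peak of replicate 1 was not among those of replicate 2 and the overlapping pair had 5.81 and 5.70. At *Olfr1382* the peaks of the replicates did not overlap at all. A summit within 250 bp of a TSS in both replicates was found at *Olfr224* and *Olfr56* only.

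**Figure D4:**
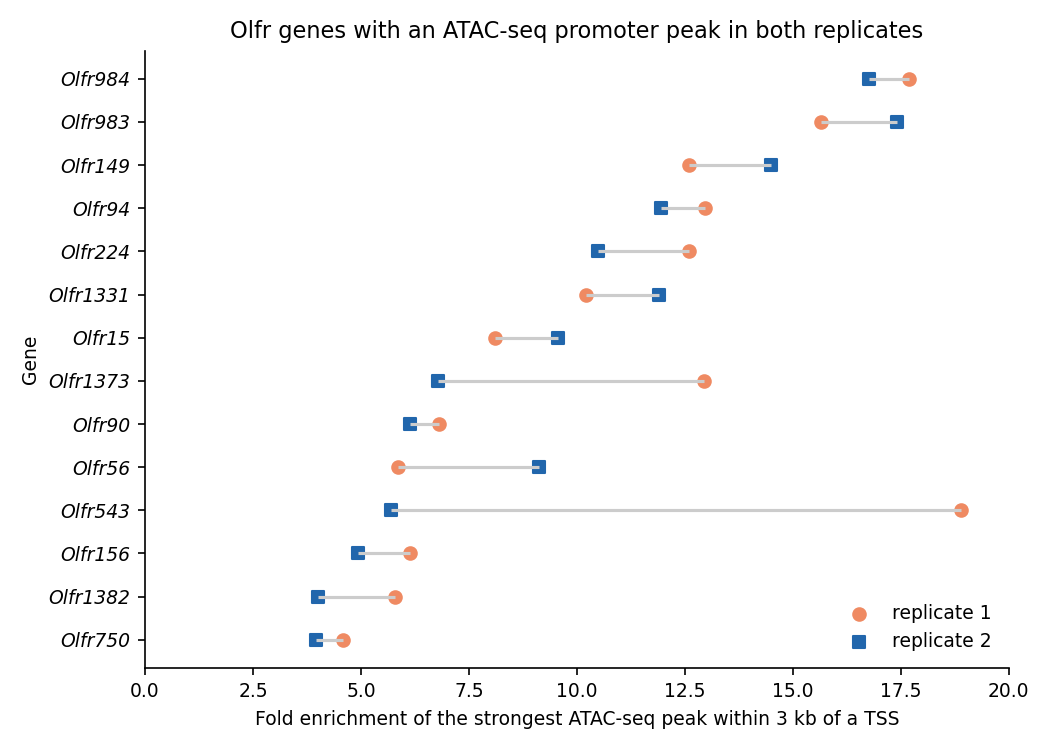
Fold enrichment of the strongest ATAC-seq promoter peak in replicates 1 (circles) and 2 (squares) of the 14 Olfr genes with a peak in both, ordered by the lower value. The genes run from Olfr984, at 17.7 and 16.8, to Olfr750, at 4.59 and 3.95, and the widest gap is that of Olfr543.

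The position of ATAC-seq summits in *Olfr* windows was close to that of the bases themselves. Of the summits within 3 kb of an *Olfr* TSS, 32 of 116 (27.6%) in replicate 1 and 4 of 19 (21.1%) in replicate 2 lay within 500 bp of it, where 21.4% of the bases of these windows lie. For other protein-coding genes the shares were 62.6% and 64.5%, with 21.7% of the bases. *Olfr* genes with a peak in both replicates lay nearer to other genes, at a median of 30.4 kb from the TSS of another protein-coding gene, against 115 kb for those with a peak in replicate 1 only and 134 kb for all *Olfr* genes.

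This was also visible by position in the cluster. Peaks in both replicates were present at 6 of 89 *Olfr* genes (6.74%) with another protein-coding TSS within 20 kb and at 8 of 1046 (0.765%) farther away, and at 5 of 92 (5.43%) at the end of a cluster against 9 of 1043 (0.863%) inside one. The class I cluster had 1 such gene, *Olfr543*, of 129 (0.775%), and class II had 13 of 1006 (1.29%). These subsets overlap each other and rest on few genes, and distance to other genes and place in the cluster were not separated.

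Genes of other kinds that lay within the clusters were in part marked. By gaps of up to 1 Mb, the *Olfr* genes formed 50 groups, of which 22 held at least 10 and together 1041. Within these 22 clusters lay 214 other protein-coding genes, of which 101 (47.2%) had ATAC-seq, 91 (42.5%) H3K4me3, 71 (33.2%) H3K27ac and 6 (2.8%) H3K27me3 promoter peaks in both replicates. Of the 1041 *Olfr* genes in these clusters, 11, 0, 1 and 0 did. Over all protein-coding genes the shares were 67.8%, 60.8%, 46.6% and 4.81%. The other genes were unevenly spread over the clusters. The cluster chr14:49894258-52495749 held 54 of them beside 36 *Olfr* genes. The largest cluster, on chromosome 2 with 227 *Olfr* genes, held 7, of which 0 had ATAC-seq or H3K4me3 in both replicates.

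Clusters differed widely in their peaks. In 10 of the 22 clusters, grouped here by that measure, no H3K4me3 peak was called in either replicate. These held 493 *Olfr* genes and 13 other protein-coding genes over 12.6 Mb, with 99 ATAC-seq peaks in replicate 1 but 2 in replicate 2, or 7.83 and 0.158 per Mb. The other 12 clusters, with 201 other protein-coding genes over 19.4 Mb, had 32 and 19.9 ATAC-seq peaks per Mb. The chromosome 9 cluster of 95 *Olfr* genes, with 3 other protein-coding genes, had 4.84 ATAC-seq peaks per Mb in replicate 2. This value lay between the 0.158 and 19.9 per Mb given above. The largest cluster, chr2:85330779-90403897 with 227 *Olfr* genes over 5.07 Mb, had 38 ATAC-seq peaks in replicate 1 and 0 in replicate 2, and 0 peaks of H3K4me3 and of H3K27ac. The class I cluster, chr7:102476579-105369355 with 129 *Olfr* and 27 other protein-coding genes, had 49 and 28 ATAC-seq peaks.

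**Figure D5:**
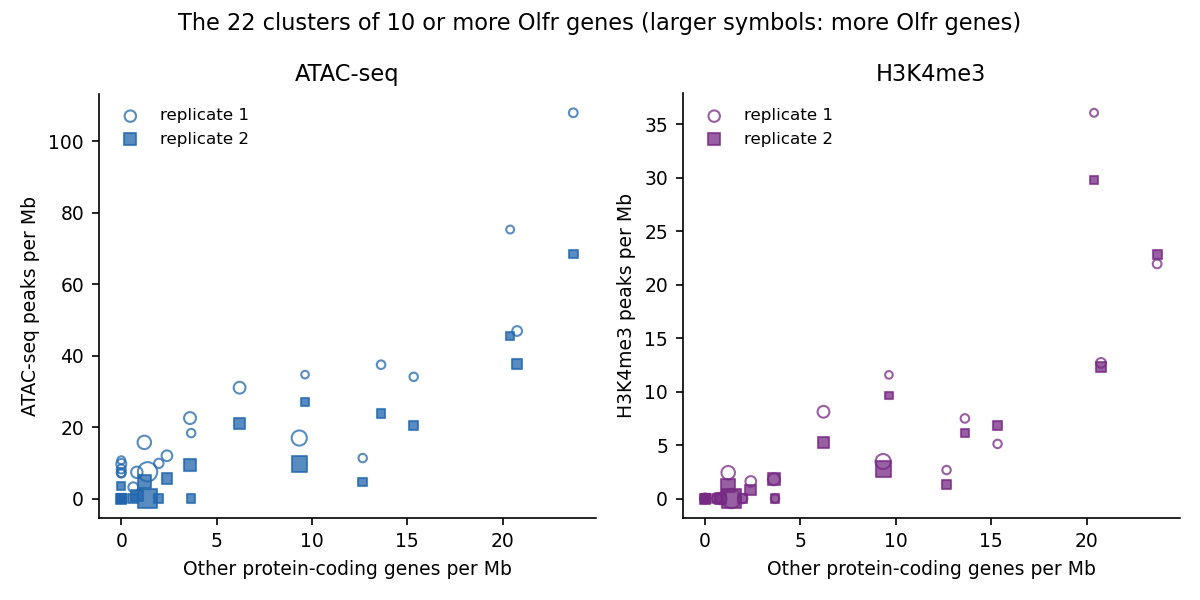
Peaks per Mb of ATAC-seq (left) and H3K4me3 (right) in the 22 clusters of 10 or more Olfr genes, against the number of other protein-coding genes per Mb of the cluster, with open circles for replicate 1 and filled squares for replicate 2. ATAC-seq replicate 2 lies at 0 in 8 clusters, and the 3 clusters with more than 20 other genes per Mb have the highest values in both panels.

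Other chemoreceptor families were also mostly without peaks. No peak of any list was found at 93.3% of 209 *Vmn1r* and 94.3% of 122 *Vmn2r* genes, which encode vomeronasal pheromone receptors, at 86.7% of 15 *Taar* genes for trace amine receptors, and at 94.3% of 35 *Tas2r* genes for bitter taste receptors. H3K27me3 in both replicates was present at 0 genes of these 4 families. In contrast, the *Zfp* zinc finger genes, of which 394 were counted, had no peak at 11.7% and H3K4me3 in both replicates at 84%.

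Some genes that serve the receptors in olfactory neurons were marked. Of 15 transduction genes, 7 had H3K4me3 in both replicates, 8 ATAC-seq, 5 H3K27ac and 3 H3K27me3, where the shares over all protein-coding genes were 60.8%, 67.8%, 46.6% and 4.81%. Of 12 markers of olfactory sensory neurons, which overlap with this list, 2 had H3K4me3, 3 ATAC-seq, 1 H3K27ac and 2 H3K27me3. *Adcy3* had H3K4me3 folds of 21.7 and 16 with H3K27ac at 4.22 and 4.05, and *Gnal* had H3K4me3 at 10.6 and 10.0 together with H3K27me3 at 3.75 and 3.42. The others with H3K4me3 were *Gnb1*, *Slc12a2*, *Pde1c*, *Pde4a* and *Ric8b*, several of which serve signalling or ion transport in many tissues. *Cnga2* had no peak, and *Omp*, the marker of mature olfactory neurons, had a single ATAC-seq peak, in replicate 1, with a fold of 4.88. Of 3 genes for receptor transport to the surface, *Reep1* had H3K4me3 in both replicates and *Rtp1* and *Rtp2* had no peak.

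The 20 genes of receptor choice and silencing all had ATAC-seq and H3K4me3 promoter peaks in both replicates, while 15 had H3K27ac and 3 H3K27me3. Over all protein-coding genes the shares were 67.8%, 60.8%, 46.6% and 4.81%. Most of this list is expressed in many tissues. It included the heterochromatin genes *Cbx1*, *Cbx3*, *Cbx5*, *Lbr*, *Setdb1*, *Ehmt1* and *Ehmt2*, the chromatin regulators *Bptf* and *Kdm1a*, the stress factor *Atf5*, the cofactor *Ldb1* and the nuclear factors *Nfia*, *Nfib* and *Nfix*. Of the transcription factors, *Lhx2*, *Ebf2* and *Emx2*, which act in the olfactory lineage among others, had H3K27me3 in both replicates, *Ebf1* had it in replicate 2 only, and *Ebf3* and *Ebf4* had none. For *Lhx2* the folds were 15.4 and 12.2 for H3K4me3 and 5.63 and 5.82 for H3K27me3. Without a limit on q, H3K27me3 was thus called in both replicates at some regulators and signalling partners of the receptors. Of the 1135 receptor genes, 0 had it in both. The q of the peaks at these regulators and partners is not given here. For *Gnal*, the replicate 2 fold of 3.42 equalled that of *Olfr38*, *Olfr211* and *Olfr283*, whose peaks had a q above 0.05.

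Motifs of the factors that act on receptor genes in neurons were more frequent in *Olfr* promoters than in others, as were TATAAA and TGANTCA. In the same 300 bp, TCCC followed by 2 bases of any kind and GGGA, the palindromic core bound by Ebf, was found in 29 *Olfr* promoters (2.56%) and in 0.994% of all protein-coding promoters, and TAATTA, a homeodomain core such as Lhx2 binds, in 274 (24.1%) and 5.3%. TATAAA, which shares AT-rich sequence with it, was found in 33.4% and 12.6%, and CAGCTG in 7.84% and 15.6%. The GC content of these promoters, given above, differed too, and its part in these shares was not tested. None of the 14 genes with ATAC-seq in both replicates held the Ebf core in this window, and 4 held TAATTA.

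The motifs marked in the printed sequences were also counted in 300 bp around the ATAC-seq summits. They were chosen from peaks that are among those counted, so the shares are no independent support. Of the 17 shared peaks of replicate 1, 8 (47.1%) held CAGCTG and 5 (29.4%) TGANTCA, against 32.4% and 22.9% of all 88575 shared peaks. Of the 101 peaks of replicate 1 alone, 15 (14.9%) and 12 (11.9%) did, against 19.3% and 14.4% of all 52141 such peaks. The core bound by CTCF was found in 1 of the 17, the peak in an exon of *Olfr750*, and in 3.42% of all shared peaks. The Ebf core was found in 0 of the 17 and in 1.28% of all shared peaks. The GC content of these windows was 47.3% for the 17 shared peaks and 39.3% for the 101.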

How the data were processed

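ATAC-seq and ChIP-seq of GFP+ MuSCs of Pax7Cas9 mice were used, with 2 libraries per feature. The authors trimmed reads (Trim Galore 0.6.10) and aligned them to mm10 (BWA 0.7.17-r1188). They removed reads of low mapping quality, duplicates (SAMtools 1.5) and blacklisted regions (bedtools). ATAC-seq reads were shifted for the Tn5 offset (deepTools 3.5.5), and peaks were called per library (MACS2 2.2.6). The series holds input libraries for the histone marks, but whether they were used in peak calling is not given in the sources used here. The deposited values are, per the file headers and format, the authors' score, the fold enrichment at the summit, and p- and q-values as −log10. The lowest −log10 q was 1.73 and 2.02 in the ATAC-seq lists and 1.32 to 1.39 in those of H3K4me3 and H3K27ac, whereas the H3K27me3 lists also hold peaks with a q above 0.05.

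Peaks on 21 chromosomes were overlapped, from 1 bp, with windows of 3 kb around each GENCODE M21 TSS (Python 3.11.15, numpy 2.4.6, pandas 2.3.3), and a gene was called where both replicates had a peak. Shared peaks overlap by at least 1 bp. Counting was checked on simulated peaks with known overlaps. Sequence, GC content, soft-masked repeats and 100-mers (every 50 bp, both strands) came from the RefSeq GRCm38.p6 FASTA. CTCF was matched by a degenerate core of its motif. Genes named by rule were *Olfr* genes with a histone mark in both replicates, the 10 with the highest lower ATAC-seq fold, and those with summits within 250 bp of a TSS in both. Further *Olfr* genes were named outside this rule after their values were seen, and *Olfr16* for its known role in muscle cells. The members, lists and rules were chosen with earlier results of these data known. The other libraries of the series were not used here.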

Additional observations from a re-analysis of the deposited data

How the results depend on the processing

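No paired analysis was possible because the results are counts of peaks from no test. The count of 14 *Olfr* genes with ATAC-seq in both replicates became 5 with promoters of 1 kb on either side, 3 with 250 bp, 8 with 1 TSS per gene, and 9 with peaks of at least 150 bp, a setting chosen after seeing the data. The 6 other settings gave 12 to 14. For H3K27ac, the count of 1 became 0 with promoters of 250 bp, with a −log10 q of at least 5, without windows that meet those of other genes, with peaks nearer to an *Olfr* TSS only, and with 1 TSS per gene. The counts of 0 for H3K4me3 and H3K27me3 stayed 0 under all 10 and 11 of these settings, which include q of at most 0.05 for H3K27me3 and, added after seeing the data, leaving out genes named -ps.

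Leaving out a replicate gave 15 to 107 *Olfr* genes for ATAC-seq, 0 to 3 for H3K4me3, 1 to 5 for H3K27me3 and 1 to 2 for H3K27ac. The value of 107 rests on ATAC-seq replicate 1 alone. Read depth is unknown, so weak signal under the calling limit cannot be told from its absence, and H3K9 or H4K20 methylation was not analysed here.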

Other observations

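The 272 annotated pseudogenes named *Olfr* resembled the protein-coding members. No peak of any list was found at 247 of them, or 90.8%, and ATAC-seq peaks were called at 24 (8.82%) in replicate 1, 5 (1.84%) in replicate 2 and 4 (1.47%) in both. H3K4me3 and H3K27me3 were each called in both replicates at 1 pseudogene (0.368%). Soft-masked repeats took a median of 28.1% of the *Olfr* windows and 21.8% of those of other protein-coding genes. By annotation, the summits of the 101 ATAC-seq peaks of replicate 1 alone lay between genes in 39 cases, in introns in 25, in the non-coding part of exons in 21 and in coding exons in 16.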
